A study of Arvicanthis niloticus with 59 samples.

Results

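The Harderian gland, a lipid-secreting gland that lies behind the eyeball of rodents, was set against fat, which stores lipid, in Arvicanthis niloticus, the Nile grass rat, which is active by day. The comparison used 5 of 59 RNA-seq libraries. They were chosen by the sampled site in the titles: 1 library of the Harderian gland, which the labels place under eye, and the 4 libraries whose tissue label is adipose. The Harderian gland came from animal T3F. The adipose libraries were the site called AdrenalGland from animal T173F, BrownFat and InguinalFat from animal T3F, and Mesentery from animal T173F. All 5 were polyadenylated RNA of untreated, healthy tissue biopsies. No age, sex or genetic line is used here. The Harderian gland has no replicate. The adipose libraries are 4 different depots from 2 animals, so the spread among them joins depot and animal. Wherever 4 adipose values follow one another, they stand in the order AdrenalGland, BrownFat, InguinalFat and Mesentery.

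An adipocyte takes up fatty acids or makes them, joins them to glycerol as triacylglycerol, keeps that in a droplet coated with perilipin and releases fatty acids again on hormonal demand. The Harderian gland is a tubuloacinar gland whose epithelial cells also fill with lipid droplets but release them onto the surface of the eye. In rodents it is known for secreting lipids with an ether bond and for accumulating porphyrins, the ring molecules from which heme is made. The 2 tissues thus both handle lipid in bulk, one for export through a duct and one for storage.

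Total expected counts were 15514079 in the Harderian gland, against 6986087, 22420209, 21053454 and 7320676 in the adipose libraries. TPM, a transcript abundance scaled for length and library size, of at least 1 was reached by 13035 genes in the Harderian gland, against 12309 to 13513 in adipose. Mitochondrially encoded genes held 8.55% of TPM in the Harderian gland, against 2.11, 37.03, 9.94 and 1.66% in adipose, which lowers the TPM of every other gene most in BrownFat. The AdrenalGland library also held adrenal genes: the steroid hydroxylase gene Cyp21a1 had 4.30 TPM in the Harderian gland, against 4909 TPM in AdrenalGland and at most 3.65 TPM in the other 3. The chromaffin granule gene Chgb had 2.93 TPM in the Harderian gland, against 2383 TPM in AdrenalGland and at most 1.11 TPM in the other 3. The heat-producing uncoupler Ucp1 had 0.163 TPM in the Harderian gland, against 92.2, 3399, 496.5 and 0.329 TPM in the 4 adipose libraries, so BrownFat was its highest. The rank correlation of expression across genes, a description with no test, was 0.764 to 0.822 between the Harderian gland and an adipose library and 0.853 to 0.933 between 2 adipose libraries.

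Genes of epithelium and of sphingoid base, ether lipid and heme synthesis were among those higher in the Harderian gland, and adipocyte markers such as Adipoq, Fabp4 and Plin1 among those lower. Of 15118 genes tested, 455 (3.01%) were called higher in the Harderian gland and 238 (1.57%) lower, by edgeR's quasi-likelihood test at an adjusted p below 0.05 and a change of at least 1 on the log2 scale. By size alone, 656 of 18970 genes (3.46%) had at least 10 TPM in the Harderian gland and at least 4 times the highest adipose library, and 377 (1.99%) had at least 10 TPM in every adipose library and in the gland at most 1 part in 4 of the lowest of them. Both criteria held for 347 genes higher and 181 lower. The median log2 fold change over all genes tested was -0.12, and it lay between -0.20 and 0.10 under the other scalings and models, so a gene's own change is read against a shift of that size.

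The test compares 1 library with 4, and the lone library is assumed to vary as the adipose libraries do, so the p-values measure the spread among these depots only. An exact permutation test of a single gene cannot go below 0.2 with 1 against 4. Within the 3 libraries of animal T3F no gene was called in either direction by edgeR, where 3020 genes had an unadjusted p below 0.05. With the animal as a block, 187 genes were called higher and 110 lower. Among the genes described here the block ended 36 calls, at adjusted p of 0.0502 to 0.122: Krt8, Bpifb1, Plpp2, Plin2, Hsd17b12, Hacd2, Alas1, Uros, Chrm3, Sox10, Runx2, Tfap2a, Spcs2, Rab3d, Rab27a, Acox3, Mvk, Ugt8a, Sphk2, Sgpl1 and Ormdl1 among those higher, and Lpl, Cers6, Plin4, Fech, Klf15, Ebf1, Zfp423, Ivd, Acadsb, Car3, Cav1, Abcd2, Acox2, Hsd17b7 and Tek among those lower. Leaving out BrownFat gave 776 genes higher and 760 lower. Leaving out AdrenalGland gave 248 higher and 94 lower, leaving out InguinalFat 155 and 48, and leaving out Mesentery 151 and 33.

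**Figure D1:**
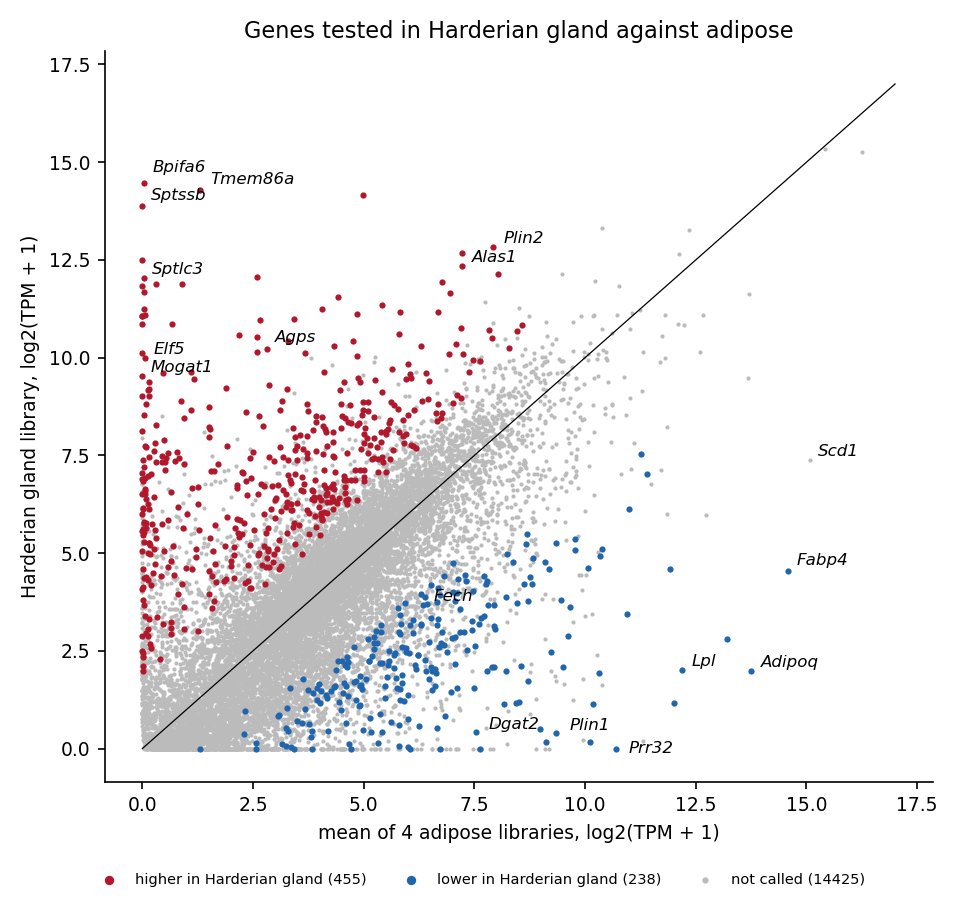
Each point is a gene tested, with the Harderian gland library on the vertical axis and the mean of the 4 adipose libraries on the horizontal axis, both as log2(TPM + 1). The line marks equal values. The 455 genes called higher include a column of points at or near 0 in adipose, led by Bpifa6, Sptssb and Sptlc3, and the 238 called lower include Fabp4, Adipoq, Lpl and Plin1.

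The label of the gland was first checked against marker genes. Members of the gene lists used here and below were chosen with earlier results of these data known. Their shares, set beside those of all genes, thus serve as description only. Epithelial genes were high: 15 of 26 epithelium genes tested were called higher in the Harderian gland and 0 lower, against 3.01% and 1.57% of all genes tested. In 25 of these 26 the gland lay above every adipose library, against 26.4% of all genes. The list's median log2 fold change was 5.74, against -0.12 over all genes. The transcription factor gene Elf5, known for specifying secretory cells of the mammary gland, had 1012 TPM in the Harderian gland, against 0, 0.102, 0.0559 and 0 TPM in adipose (adjusted p = 0.00164). The tight junction gene Cldn10 had 588.0 TPM in the Harderian gland, against 0 to 0.200 TPM in adipose, and Cldn7, another claudin, had 520.2 TPM in the gland, against 0 to 0.201 TPM. These genes were absent or at trace level in every depot. The epithelial splicing regulator gene Esrp1 had 153.8 TPM in the Harderian gland, against 1.17, 0.646, 0.737 and 1.08 TPM in adipose, a log2 fold change of 7.41 ± 0.33 (SE, adjusted p = 0.00137). The epithelial transcription factor gene Grhl2 had 32.0 TPM in the Harderian gland and was listed at 0 in all 4 adipose libraries, at least 386-fold higher against a floor of 3 counts per adipose library. The adhesion gene Epcam had 949.7 TPM in the gland, against 142.3, 0.480, 0.423 and 4.21 TPM in adipose, and did not pass (adjusted p = 0.265); its highest adipose value stood in AdrenalGland. Leaving out 1 adipose library in turn kept 9 to 15 of the 15 calls, fewest without Mesentery, and 7 of them were kept under every one of the 4 omissions.

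Basal and contractile cells of glands were looked at next. Of 11 myoepithelium genes, those of the contractile cells around acini, none was called by edgeR, while 8 (72.7%) lay above every adipose library, against 26.4% of all genes. The basal keratin gene Krt14 had 131.8 TPM in the Harderian gland, against 0.544, 0.158, 2.25 and 27.0 TPM in adipose (adjusted p = 0.242). Krt17, another such keratin, had 93.7 TPM in the gland, against 0, 0, 0 and 93.9 TPM, so the Mesentery library was as high as the gland. The contractile protein gene Cnn1 had 168.3 TPM in the gland, against 2.32, 2.05, 3.98 and 43.5 TPM in adipose (adjusted p = 0.188). Mesentery was thus the adipose library nearest to the gland for these 3 genes, and how far other cells in it account for that was not tested. The water channel gene Aqp5, typical of acinar cells, had 159.0 TPM in the Harderian gland, against 0, 0.584, 0.386 and 0 TPM in adipose (adjusted p = 0.0132, and 0.0591 without InguinalFat).

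Adipocyte markers were low in the gland. All 15 white adipocyte genes lay below every adipose library, against 16.7% of all genes. Of the 15, 10 (66.7%) were called lower and 0 higher, against 1.57% and 3.01% of all genes tested. The list's median log2 fold change was -9.14, against -0.12 over all genes. Adipoq, the gene of the hormone adiponectin, had 2.93 TPM in the Harderian gland, against 14348, 4844, 17429 and 18145 TPM in adipose, a log2 fold change of -12.09 ± 1.54 (SE, adjusted p = 0.0137). Fabp4, the adipocyte fatty acid carrier, had 22.1 TPM in the Harderian gland, against 25673, 22292, 22755 and 28167 TPM in adipose (adjusted p = 0.0204). The depots did not overlap the gland in either gene. Pparg, the receptor that drives adipocyte differentiation, stood apart from the rest of its list: it had 582.3 TPM in the Harderian gland, against 751.9, 654.3, 660.4 and 844.1 TPM in adipose, a log2 fold change of -0.38 ± 0.50 (SE) that did not pass (adjusted p = 0.735). Without Mesentery 2 of the 10 calls were kept, and without AdrenalGland or InguinalFat 5 each; the adjusted p of those lost was at most 0.0885. In bulk tissue, fewer cells of a type and less RNA per cell cannot be told apart.

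Markers of other cell types were low or mixed in the gland. The 13 photoreceptor genes in the table summed to 12.8 TPM in the Harderian gland, against 9.14, 17.01, 10.4 and 4.83 TPM in adipose. Pigment cell genes summed to 47.0 TPM in the gland, against 1.51 to 12.8 TPM in adipose, through Dct, an enzyme of melanin synthesis, with 32.4 TPM in the gland (adjusted p = 0.0270, and 0.0878 without Mesentery). The 12 lens and cornea genes summed to 186.6 TPM in the gland, against 2.15 to 39.0 TPM in adipose, and the 10 neuron and glia genes to 420.6 TPM in the gland, against 35.7 to 99.5 TPM. Most of the lens and cornea sum was Pax6, with 158.7 TPM in the gland, and most of the neuron and glia sum Sox10, with 404.1 TPM, both also on the list of gland development factors and called higher. Fibroblast genes summed to 1174 TPM in the gland, against 2571, 997.7, 12617 and 5431 TPM in adipose, above BrownFat and below the other 3, and none of the 12 was called by edgeR. Macrophage genes summed to 136.6 TPM in the Harderian gland, against 181.3 to 1929 TPM in adipose, and endothelial genes to 426.2 TPM in the gland, against 1393 to 2566 TPM in adipose. Among endothelial genes the angiopoietin receptor gene Tek was called lower, with 9.73 TPM in the gland, against 38.7 to 65.2 TPM in adipose (adjusted p = 0.0336, and 0.0623 to 0.105 without AdrenalGland, InguinalFat or Mesentery).

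**Figure D2:**
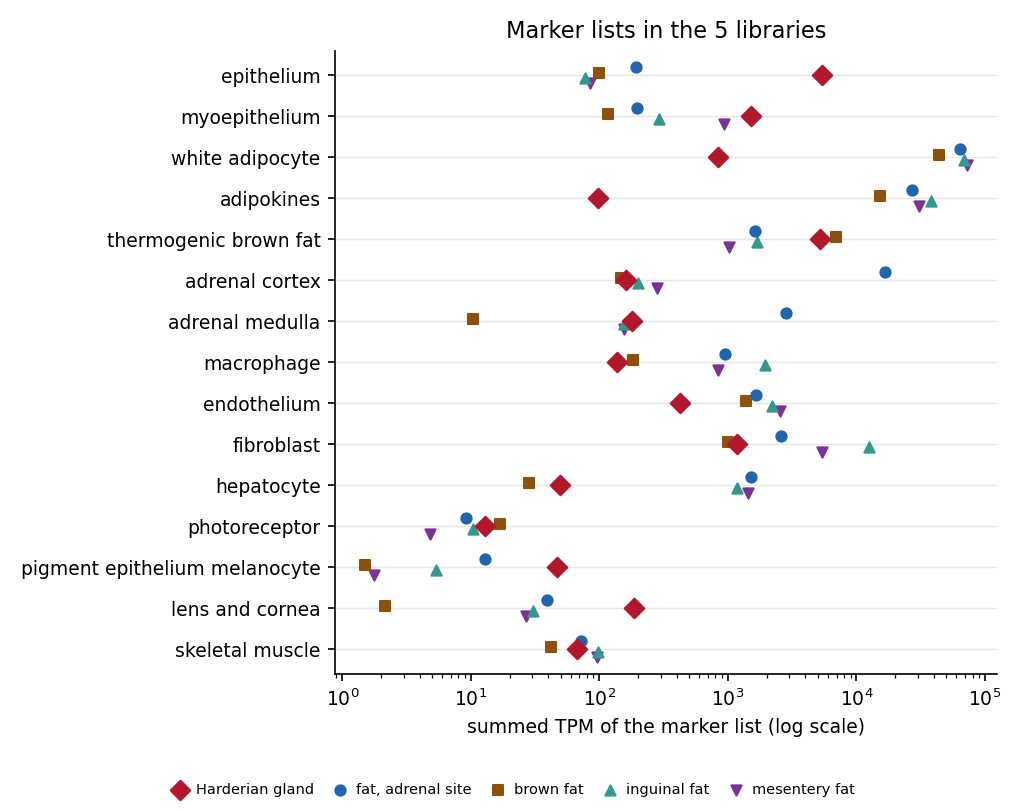
Summed TPM of each marker list, on a log scale, in the Harderian gland and the 4 adipose libraries. The epithelium list sums to 5361 TPM in the Harderian gland and to 77.6 to 192.9 TPM in adipose, the white adipocyte list to 839.2 TPM in the gland and to 44049 to 72454 TPM in adipose, and the adrenal cortex list is high in the AdrenalGland library alone of these 5.

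The 10 most abundant genes of the Harderian gland together held 19.07% of its TPM. Of these, the mitochondrial genes mt-Nd5 and mt-Nd1, subunits of respiratory complex I, were the first, with 41341 and 39224 TPM, and did not differ by the test (adjusted p = 0.929 and 0.783). Bpifa6, of a family of secreted lipid-binding proteins, had 22803 TPM in the Harderian gland, against 0, 0.0301, 0.0664 and 0 TPM in adipose, which were 0, 1, 2 and 0 reads (adjusted p = 0.00239). Tmem86a, a relative of the enzyme that cleaves lysoplasmalogens, had 20003 TPM in the gland, against 2.21, 1.53, 2.08 and 0 TPM in adipose (adjusted p = 0.00464). Tmem254b, which in mouse has near-identical copies, so that its level is uncertain, had 18465 TPM in the gland, against 53.4, 16.7, 26.4 and 26.9 TPM in adipose (adjusted p = 0.00239). Ppt1, a lysosomal enzyme that removes palmitate from proteins, had 6534 TPM in the Harderian gland, against 191.5, 46.1, 156.4 and 197.8 TPM in adipose, a log2 fold change of 5.58 ± 0.56 (SE, adjusted p = 0.00749, and 0.0511 without Mesentery). The same 10 include Sptssb, Fabp5, G0s2 and Plin2, described with their pathways. Bpifa6, Tmem86a and Tmem254b were thus among the most abundant transcripts of the gland and at most at 53.4 TPM in any depot.

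Sphingoid bases are the backbone of ceramides and sphingolipids, and serine palmitoyltransferase makes them from serine and a fatty acyl-CoA. Genes of that enzyme and of the next steps were among the highest of the Harderian gland. Sptssb, a small subunit that widens the enzyme's choice of acyl-CoA, had 15052 TPM in the gland and was listed at 0 in all 4 adipose libraries, at least 13601-fold higher against a floor of 3 counts per library (adjusted p = 0.0130, and 0.0590 without Mesentery). Sptlc3, a catalytic subunit, had 4198 TPM in the Harderian gland, against 0, 0, 0.0881 and 0 TPM in adipose (adjusted p = 0.00517). Sptlc1, the subunit shared by all forms of the enzyme, had 3002 TPM in the gland, against 21.5, 16.0, 23.2 and 20.2 TPM in adipose, a log2 fold change of 7.18 ± 0.51 (SE, adjusted p = 0.00286). All 3 were thus far above every depot, and adipose expressed the shared subunit at a moderate level but the other 2 hardly or not at all. Kdsr, which reduces the first product to sphinganine, had 2410 TPM in the gland, against 18.9, 7.21, 16.0 and 20.9 TPM in adipose, a log2 fold change of 7.32 ± 0.54 (SE, adjusted p = 0.00323).

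Steps that build and take apart ceramide differed in direction by isoform. The ceramide synthase gene Cers2, whose enzyme prefers very long acyl chains, had 708.8 TPM in the Harderian gland, against 75.3, 44.3, 67.3 and 78.9 TPM in adipose, a log2 fold change of 3.42 ± 0.42 (SE, adjusted p = 0.0119). Cers6, whose enzyme prefers palmitoyl chains, had 1.92 TPM in the gland, against 153.3, 23.2, 146.0 and 222.5 TPM in adipose, a log2 fold change of -6.00 ± 1.21 (SE, adjusted p = 0.0489). The alkaline ceramidase gene Acer3, which frees sphingosine from ceramide, had 4307 TPM in the gland, against 1.27, 3.80, 10.2 and 4.80 TPM in adipose (adjusted p = 0.00696). Asah2, another ceramidase, had 700.8 TPM in the gland, against 0.822 to 1.87 TPM in adipose (adjusted p = 0.00164). So among these genes Cers2, Acer3 and Asah2 were higher in the gland and Cers6 lower. Cers4, a further ceramide synthase gene, had 3.56 TPM in the gland, against 19.3, 1.72, 5.02 and 8.23 TPM in adipose, and was not called (adjusted p = 0.616). The phosphatase gene Sgpp1, which acts on sphingosine 1-phosphate, had 1548 TPM in the gland, against 99.0, 19.6, 59.2 and 39.7 TPM in adipose, a log2 fold change of 4.95 ± 0.51 (SE, adjusted p = 0.00782). This group of genes was put together after the values had been seen, so it too serves as description only. Of 29 sphingolipid genes tested, 12 (41.4%) were called higher and 1 (3.45%) lower, against 3.01% and 1.57% of all genes. Without Mesentery 6 of the 12 calls were kept, with Sptssb, Cers2, Ugt8a, Acer3, Sphk2 and Sgpl1 lost. Without AdrenalGland or InguinalFat 7 were kept, with Ormdl1, Cers2, Ugt8a, Sphk2 and Sgpl1 lost. The Cers6 call was lost without any of these 3 libraries (adjusted p = 0.0968 to 0.118).

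Ether lipids carry a fatty alcohol in place of a fatty acid on the glycerol backbone, and their synthesis starts in the peroxisome. Of 15 ether lipid genes tested, 4 (26.7%) were called higher in the Harderian gland and 0 lower, against 3.01% and 1.57% of all genes, with a median log2 fold change of 1.27. By TPM 9 lay above every adipose library and 6 (40%) below every one, against 26.4% and 16.7% of all genes. Agps, which puts the fatty alcohol on the backbone, had 1201 TPM in the gland, against 6.11, 4.55, 6.84 and 6.59 TPM in adipose, a log2 fold change of 7.61 ± 0.44 (SE, adjusted p = 0.00165). Far1, which makes the fatty alcohol, had 306.0 TPM in the gland, against 9.60, 1.79, 5.70 and 5.48 TPM in adipose, a log2 fold change of 5.89 ± 0.51 (SE, adjusted p = 0.00533). Both of these steps were far above every depot. Cept1, which joins choline or ethanolamine to the finished backbone, had 226.6 TPM in the gland, against 14.6 to 21.5 TPM in adipose (adjusted p = 0.00792, and 0.0503 without Mesentery). Plpp2, a lipid phosphate phosphatase, had 104.6 TPM in the gland, against 3.22 to 7.89 TPM in adipose (adjusted p = 0.0129). Gnpat, the acyltransferase of the first step, had 192.3 TPM in the gland, against 69.1, 58.9, 55.3 and 80.8 TPM in adipose, a log2 fold change of 1.49 ± 0.45 (SE) that did not pass (adjusted p = 0.128). Among the 6 below every depot, none of them called, Tmem189, the desaturase that makes plasmalogens, had 2.53 TPM in the gland, against 20.8, 6.59, 17.4 and 13.6 TPM in adipose (adjusted p = 0.0715). Selenoi, which adds ethanolamine, had 2.35 TPM in the gland, against 17.9, 15.1, 17.5 and 34.9 TPM in adipose (adjusted p = 0.119). Of 17 genes of peroxisome biogenesis and transport tested, 0 were called higher and 1 (5.88%) lower, against 3.01% and 1.57% of all genes. That 1 was Abcd2, a peroxisomal transporter of very long chain acyl-CoA, with 14.9 TPM in the gland, against 148.6, 74.9, 135.2 and 186.0 TPM in adipose (adjusted p = 0.0315, and 0.0690 to 0.103 without AdrenalGland, InguinalFat or Mesentery).

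Heme is made from glycine and succinyl-CoA through a chain of porphyrin intermediates, and ferrochelatase, the product of Fech, closes the chain by inserting iron. In the Harderian gland 6 of 17 porphyrin and heme genes tested (35.3%) were called higher and 1 (5.88%) lower, against 3.01% and 1.57% of all genes, with a median log2 fold change of 1.61. Alas1, the first and rate-limiting enzyme, had 5207 TPM in the Harderian gland, against 336.4, 130.5, 70.7 and 52.0 TPM in adipose, a log2 fold change of 5.16 ± 0.93 (SE, adjusted p = 0.0354). Alad, the next enzyme, had 73.8 TPM in the gland, against 66.8, 59.8, 42.6 and 46.8 TPM in adipose, which did not pass (log2 fold change 0.36 ± 0.60, SE, adjusted p = 0.795). The first step was thus far above every depot and the next nearly level with them.

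Among the ring-forming steps Uros, Urod and Cpox were also called higher, and Fech, the last step, was called lower. Uros, which closes the ring, had 83.9 TPM in the gland, against 6.23, 4.34, 5.72 and 11.9 TPM in adipose (adjusted p = 0.0123). Urod, a decarboxylase of the ring, had 833.6 TPM in the gland, against 51.2, 49.0, 40.4 and 53.3 TPM in adipose (adjusted p = 0.0118), and Cpox, an oxidase of it, 211.1 TPM in the gland, against 18.7, 10.4, 11.8 and 26.7 TPM (adjusted p = 0.00969). All 3 were above every depot. Ppox, which makes protoporphyrin, had 97.5 TPM in the gland, against 29.7, 24.4, 34.7 and 35.9 TPM in adipose, and did not pass (log2 fold change 1.61 ± 0.37, SE, adjusted p = 0.0695). Fech had 11.7 TPM in the Harderian gland, against 81.9, 63.4, 72.4 and 104.2 TPM in adipose, a log2 fold change of -2.81 ± 0.51 (SE, adjusted p = 0.0364). It was the one gene of this list called lower, and by TPM the gland ranked 58 among 59 libraries for it. Hmox1, which breaks heme down, had 717.9 TPM in the gland, against 21.5, 25.8, 36.9 and 29.1 TPM in adipose (adjusted p = 0.00901). For 8 of the list's 17 genes the Harderian gland was the highest of all 59 libraries by TPM. The matching share of all genes was not counted, so the 8 are a description only. The calls of Alas1 and Fech were lost without AdrenalGland, InguinalFat or Mesentery (adjusted p = 0.0637 to 0.110), those of Uros and Urod without InguinalFat, and those of Urod and Hmox1 without Mesentery, while Cpox kept its call under each.

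**Figure D3:**
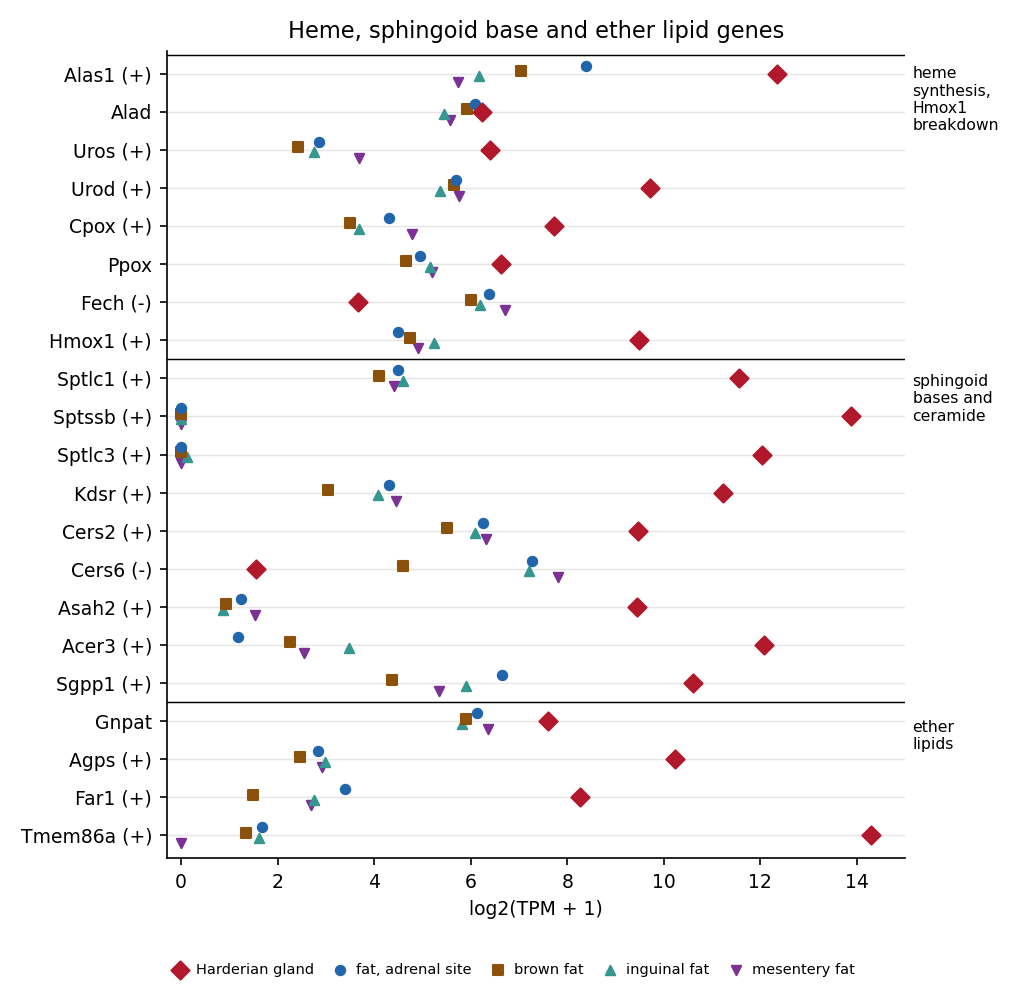
TPM on the log2(TPM + 1) scale for genes of heme, sphingoid base and ether lipid metabolism, with the Harderian gland as red diamonds and each adipose library as its own symbol. A plus marks a gene called higher in the gland and a minus a gene called lower. The gland lies right of all depots in every row except Fech and Cers6.

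Of the genes that make fatty acids, those up to palmitate gave 1 call, and the elongation genes were called in both directions. Of 16 fatty acid synthesis genes tested, 0 were called higher and 1 (6.25%) lower, against 1.57% of all genes. The 1 was Mlxipl, a glucose-sensing transcription factor gene of lipogenesis, with 4.51 TPM in the Harderian gland, against 819.5, 353.9, 452.0 and 788.4 TPM in adipose, a log2 fold change of -7.01 ± 0.84 (SE, adjusted p = 0.0116, and 0.0521 without Mesentery). Fasn, fatty acid synthase itself, had 226.9 TPM in the gland, against 1438, 714.9, 763.0 and 1380 TPM in adipose, which did not pass (adjusted p = 0.333). Thrsp, a lipogenic cofactor, had 3158 TPM in the gland, against 15660, 11024, 11950 and 14400 TPM in adipose (adjusted p = 0.140). Both were below every depot by value but within the spread that the test allows for. By TPM 8 of the 16 (50%) lay above every adipose library and 5 (31.2%) below every one, against 26.4% and 16.7% of all genes. The list's median log2 fold change was 0.18, against -0.12 over all genes. One of the 8 was Insig1, with 1918 TPM in the gland, against 992.7, 101.9, 380.1 and 752.4 TPM in adipose, which did not pass (adjusted p = 0.221). Of 22 elongation and desaturation genes tested, 5 (22.7%) were called higher (3 with the animal as a block) and 1 (4.55%) lower, against 3.01% and 1.57% of all genes, with a median log2 fold change of -1.02.

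The elongases are the chain-lengthening enzymes and each prefers certain substrates. Elovl3, known from skin glands and brown fat for saturated and monounsaturated very long chains, had 4530 TPM in the Harderian gland, against 494.0, 168.4, 126.4 and 261.4 TPM in adipose, a log2 fold change of 4.17 ± 0.54 (SE, adjusted p = 0.0140). Elovl5, which lengthens polyunsaturated chains, had 2281 TPM in the gland, against 90.0, 26.1, 42.6 and 63.2 TPM in adipose, a log2 fold change of 5.45 ± 0.50 (SE, adjusted p = 0.00605). Elovl6, which takes palmitate to stearate, had 2.29 TPM in the gland, against 716.2, 110.9, 146.0 and 694.9 TPM in adipose, a log2 fold change of -7.33 ± 1.47 (SE, adjusted p = 0.0483). BrownFat, which expresses Elovl3 in other rodents, was not its highest depot here. Of the genes for the other steps of the cycle, Hsd17b12 and Hacd2 were called higher. Hsd17b12, the ketoacyl reductase, had 3228 TPM in the gland, against 110.0, 218.2, 82.7 and 82.7 TPM in adipose (adjusted p = 0.0466). Hacd2, a dehydratase, had 1462 TPM in the gland, against 335.6, 90.6, 231.9 and 293.9 TPM in adipose (adjusted p = 0.0284). Tecr, the enoyl reductase of the last step, had 1186 TPM in the gland, against 568.5, 217.8, 280.7 and 540.0 TPM in adipose, and did not pass (log2 fold change 1.63 ± 0.50, SE, adjusted p = 0.138), nor did the dehydratase relatives Hacd1, Hacd3 and Hacd4. Fads6, of the desaturase family, had 427.0 TPM in the gland, against 2.87, 2.03, 0.549 and 1.93 TPM in adipose (adjusted p = 0.00696). The calls of Hsd17b12, Hacd2 and Elovl6 were lost without AdrenalGland, InguinalFat or Mesentery (adjusted p = 0.0713 to 0.133) and that of Elovl3 without Mesentery (0.0708). The stearoyl-CoA desaturase gene Scd1, the most abundant gene of 2 of the depots, had 166.3 TPM in the gland, against 55176, 2440, 16679 and 64316 TPM in adipose, and did not pass (log2 fold change -7.48 ± 2.41, SE, adjusted p = 0.151). Scd2, a close relative with which Scd1 may share reads, had 61.9 TPM in the gland, against 579.7 to 11633 TPM in adipose (adjusted p = 0.107).

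Of 20 genes of fatty acid uptake and activation tested, 2 (10%) were called higher in the Harderian gland and 4 (20%) lower, against 3.01% and 1.57% of all genes. Slc27a4, a fatty acid transport protein of epithelia, had 366.3 TPM in the gland, against 26.8, 24.7, 36.1 and 32.1 TPM in adipose (adjusted p = 0.0112). Acsl5, an acyl-CoA synthetase, had 1053 TPM in the gland, against 40.9, 4.58, 26.0 and 39.9 TPM in adipose (adjusted p = 0.0166). Acsl1, the synthetase of adipocytes, had 20.7 TPM in the gland, against 916.6, 1173, 702.1 and 915.0 TPM in adipose, just short of passing (adjusted p = 0.0565). Of the genes called lower, Lpl, the lipase that frees fatty acids from blood lipoproteins, had 3.03 TPM in the gland, against 5345, 1761, 3864 and 7579 TPM in adipose (adjusted p = 0.0232). Its anchor on capillaries, Gpihbp1, had 11.3 TPM in the gland, against 712.8, 701.5, 783.7 and 1014 TPM in adipose (adjusted p = 0.0112). The fatty acid translocase gene Cd36 had 3.26 TPM in the gland, against 698.3, 694.8, 784.1 and 708.0 TPM in adipose (adjusted p = 0.0155). The lipase, its anchor and the translocase were thus all low in the gland. Fabp5, an epithelial fatty acid carrier, had 10186 TPM in the gland, against 2349, 216.3, 786.3 and 2021 TPM in adipose, and did not pass (adjusted p = 0.0947). None of the 6 calls was kept without Mesentery (adjusted p = 0.0508 to 0.0885). Without InguinalFat that of Gpihbp1 was kept, and without AdrenalGland those of Slc27a4, Cd36 and Gpihbp1.

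Triacylglycerol is built by stepwise acylation of glycerol. Of 17 acyltransferase and related genes tested, 1 (5.88%) was called higher and 3 (17.6%) lower, against 3.01% and 1.57% of all genes. Mogat1, which acylates monoacylglycerol, had 1104 TPM in the Harderian gland and was listed at 0 in all 4 adipose libraries, at least 1217-fold higher against the floor (adjusted p = 0.00913). Dgat2, one of the 2 enzymes for the last acylation, had 0.325 TPM in the gland, against 673.1, 511.5, 600.9 and 789.8 TPM in adipose, a log2 fold change of -10.97 ± 1.33 (SE, adjusted p = 0.0119, and 0.0633 without Mesentery). Dgat1, the other, had 598.0 TPM in the gland, against 141.9, 233.1, 134.5 and 122.7 TPM in adipose, which did not pass (log2 fold change 1.72 ± 0.76, SE, adjusted p = 0.271). By TPM, Dgat1 thus exceeded Dgat2 in the gland, and Dgat2 exceeded Dgat1 in each depot. Lpin1, a phosphatidate phosphatase, had 3.23 TPM in the gland, against 258.4, 222.7, 188.0 and 279.9 TPM in adipose (adjusted p = 0.0169, and 0.0520 and 0.0644 without InguinalFat and Mesentery). Agpat1, which adds the second acyl chain, had 2.06 TPM in the gland, against 53.0, 33.8, 40.2 and 47.7 TPM in adipose (adjusted p = 0.0104). Cds1, which instead turns phosphatidate to phospholipid synthesis, had 1528 TPM in the gland, against 3.82, 4.78, 2.79 and 2.71 TPM in adipose (adjusted p = 0.00570), and was chosen after its value was seen.

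Genes of the lipid droplet's coat were also called in both directions. Of 12 droplet genes tested, 1 (8.33%) was called higher and 4 (33.3%) lower, against 3.01% and 1.57% of all genes. Plin2, the perilipin of most cells, had 7252 TPM in the Harderian gland, against 340.8, 233.6, 111.8 and 277.6 TPM in adipose, a log2 fold change of 4.87 ± 0.71 (SE, adjusted p = 0.0205). Plin1, the perilipin of adipocytes, had 0.121 TPM in the gland, against 1104, 775.1, 1037 and 1528 TPM in adipose, a log2 fold change of -13.14 ± 1.35 (SE, adjusted p = 0.00782). Plin4, a further perilipin, had 29.4 TPM in the gland, against 1512, 471.3, 1495 and 1698 TPM in adipose (adjusted p = 0.0245). The droplet fusion gene Cidec had 23.05 TPM in the gland, against 4749, 1632, 3812 and 5316 TPM in adipose (adjusted p = 0.0216), and the membrane gene Cav1 68.9 TPM in the gland, against 2181, 644.2, 2512 and 2763 TPM (adjusted p = 0.0495). Cidea, a relative of Cidec found in brown fat and in secretory glands, had 507.9 TPM in the gland, against 54.0, 1127, 175.7 and 16.9 TPM in adipose (adjusted p = 0.997): below BrownFat and above the other 3. Except that of Plin1, these calls were lost without AdrenalGland, InguinalFat or Mesentery (adjusted p = 0.0633 to 0.124).

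Among genes for the release of fatty acids from the droplet, hormone-sensitive lipase and hormone receptors were lower in the gland. Of 15 lipolysis genes tested, 1 (6.67%) was called higher and 5 (33.3%) lower, against 3.01% and 1.57% of all genes, with a median log2 fold change of -3.48. Abhd5, the coactivator of adipose triglyceride lipase, had 3932 TPM in the Harderian gland, against 87.4, 128.4, 113.9 and 98.9 TPM in adipose (adjusted p = 0.0139, and 0.0667 and 0.0747 without InguinalFat and Mesentery). That lipase, Pnpla2, had 188.4 TPM in the gland, against 654.4, 1182, 726.7 and 730.5 TPM in adipose (adjusted p = 0.314). Its inhibitor G0s2 had 9861 TPM in the gland, against 5437, 5383, 5371 and 4729 TPM in adipose (log2 fold change 0.82 ± 0.57, SE, adjusted p = 0.496), so it was abundant in both tissues. Lipe, hormone-sensitive lipase, had 2.95 TPM in the gland, against 291.9, 322.0, 268.8 and 308.4 TPM in adipose (adjusted p = 0.0262). Among receptors that govern it, Adrb3, the adrenaline receptor of adipocytes, had 0.0220 TPM in the gland, against 58.2, 62.3, 81.9 and 50.5 TPM in adipose (adjusted p = 0.00878), and the adenosine receptor gene Adora1 had 1.28 TPM in the gland, against 381.9, 242.4, 336.4 and 492.8 TPM (adjusted p = 0.00603). Both receptors were at or near 0 in the gland. The natriuretic peptide clearance receptor gene Npr3 had 1.19 TPM in the gland, against 140.8 to 436.3 TPM in adipose, and the nicotinic acid receptor gene Hcar2 1.26 TPM in the gland, against 75.1 to 625.6 TPM (adjusted p = 0.0116 and 0.0270). Mgll, which splits monoacylglycerol, had 4511 TPM in the gland, against 737.1, 528.6, 744.5 and 838.6 TPM in adipose, and did not pass (adjusted p = 0.0605). The calls of Lipe and Hcar2 were lost without AdrenalGland, InguinalFat or Mesentery (adjusted p = 0.0512 to 0.0878).

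**Figure D4:**
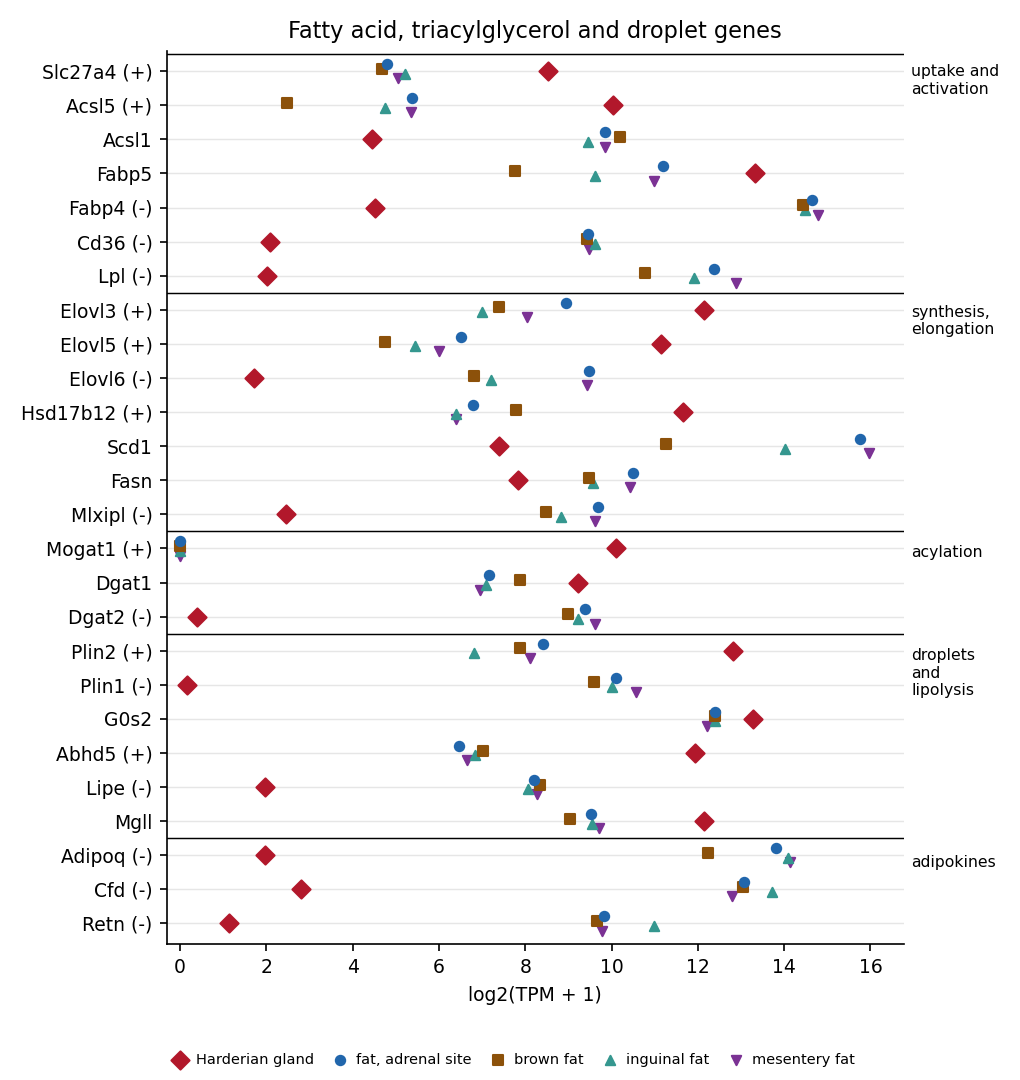
TPM on the log2(TPM + 1) scale for genes of fatty acid uptake, synthesis, acylation, storage, release and the adipokines, with the Harderian gland as red diamonds and each adipose library as its own symbol. A plus marks a gene called higher in the gland and a minus a gene called lower. Plin2 and Plin1, Acsl5 and Acsl1, and Elovl3 and Elovl6 lie on opposite sides of the depots.

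Several steps have a pair of genes of like function, and the share of 1 gene in the pair's summed TPM was computed for 8 pairs. The pairs were picked after their values had been seen, so the shares are a description with no test. Plin2 made up 100% of Plin2 and Plin1 in the Harderian gland, against 23.6, 23.2, 9.73 and 15.4% in the adipose libraries. Dgat1 made up 99.95% of Dgat1 and Dgat2 in the gland, against 17.4, 31.3, 18.3 and 13.4% in adipose. Fabp5 made up 99.8% of Fabp5 and Fabp4 in the gland, against 0.961 to 8.38% in adipose. In these 3 pairs the first gene held nearly the whole sum in the gland and the second gene the larger share in every depot. Acsl5 took 98.1% with Acsl1 in the gland, against 0.389 to 4.27% in adipose, and Lpin3 95.5% with Lpin1 in the gland, against 5.50 to 12.3%. The narrowest gaps were those of Agpat3 with Agpat2, at 67.7% in the gland, against 9.75 to 26.0% in adipose, and of Elovl3 with Elovl6, at 99.95% in the gland, against 27.3 to 60.3%.

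**Figure D5:**
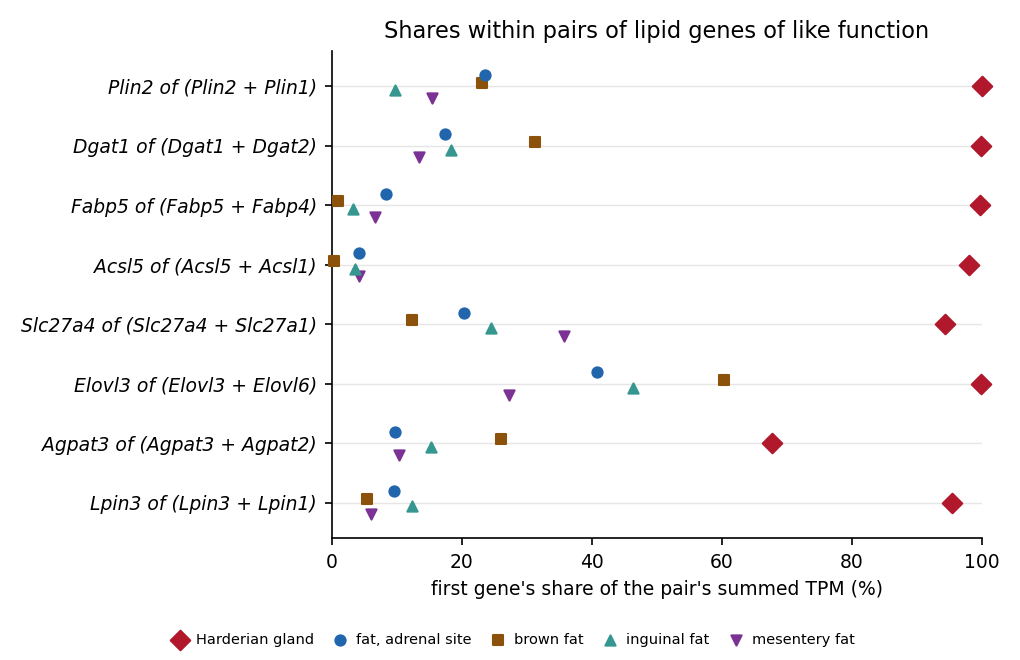
For each of 8 pairs, the share in percent that the first gene takes of the pair's summed TPM, in the Harderian gland (red diamonds) and in each adipose library. The gland lies at 67.7% or more in every pair, to the right of all adipose libraries, whose highest share is 60.3% for Elovl3 in BrownFat.

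Genes of fatty acid breakdown lay mostly below the depots by TPM but gave few calls. Of 26 fatty acid oxidation genes tested, 1 was called higher and 1 lower (3.85% each), near the 3.01% and 1.57% of all genes. By TPM 16 of the 26 (61.5%) lay below every adipose library, against 16.7% of all genes, and the median log2 fold change was -2.01, against -0.12 over all genes. The depots themselves spread widely: Hadh, a mitochondrial dehydrogenase gene of the pathway, had 95.5 TPM in the gland, against 508.1, 1604, 559.8 and 350.0 TPM in adipose (adjusted p = 0.310). Acox3, a peroxisomal oxidase of branched chains, had 94.5 TPM in the Harderian gland, against 12.1, 10.97, 16.2 and 14.6 TPM in adipose (adjusted p = 0.0190). Acox2, a related oxidase, had 3.53 TPM in the gland, against 52.2, 21.0, 26.9 and 67.1 TPM in adipose (adjusted p = 0.0431). The 2 peroxisomal oxidases thus moved in opposite directions; Acox2 lost its call without AdrenalGland, InguinalFat or Mesentery (adjusted p = 0.0734 to 0.0913), Acox3 without InguinalFat or Mesentery (0.0712 and 0.0782). The mitochondrial dehydrogenase gene Acadvl had 356.5 TPM in the gland, against 860.3, 4039, 920.4 and 559.3 TPM in adipose (adjusted p = 0.499). Hsd17b4, a peroxisomal oxidation enzyme, had 516.7 TPM in the gland, against 54.7, 85.2, 45.2 and 56.4 TPM in adipose, and did not pass (adjusted p = 0.0790). Crot, which passes shortened chains out of the peroxisome as carnitine esters, had 2047 TPM in the gland, against 11.3, 9.15, 9.76 and 8.51 TPM in adipose, a log2 fold change of 7.66 ± 0.55 (SE, adjusted p = 0.00305); it was chosen after its value was seen. Branched-chain amino acids supply primers for branched fatty acids. Of 14 genes of their breakdown, 3 (21.4%) were called lower in the gland, against 1.57% of all genes, and 0 higher: Acad8 had 3.13 TPM in the gland, against 84.7, 47.5, 62.8 and 90.8 TPM in adipose (adjusted p = 0.0105). Ivd and Acadsb, dehydrogenases of the same family, were the other 2 (adjusted p = 0.0466 and 0.0423), and both lost their call without AdrenalGland, InguinalFat or Mesentery (0.0669 to 0.119). Of 21 cholesterol synthesis genes 1 was called in each direction (4.76%), against 3.01% of all genes called higher and 1.57% lower. The mevalonate kinase gene Mvk was called higher and Hsd17b7 lower (adjusted p = 0.0315 and 0.0289). Both calls were lost without any of the same 3 libraries (0.0607 to 0.116).

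Secreted signals of adipocytes were low in the gland. Of 15 adipokine genes tested, 5 (33.3%) were called lower, against 1.57% of all genes, and 0 higher, with a median log2 fold change of -5.96, or -4.13 with genes at 0 in a whole group set to their bound. Beside Adipoq, the complement protease gene Cfd had 5.97 TPM in the Harderian gland, against 8584, 8486, 13583 and 7075 TPM in adipose (adjusted p = 0.0159). Retn, the gene of resistin, had 1.21 TPM in the gland, against 907.6, 816.4, 2015 and 881.4 TPM in adipose (adjusted p = 0.0135). The retinol carrier gene Rbp4 had 0.410 TPM in the gland, against 817.3, 237.4, 436.3 and 542.8 TPM in adipose (adjusted p = 0.00901). In each of these the gland and the depots lay far apart, with no overlap. Angptl4, an inhibitor of lipoprotein lipase, had 2.96 TPM in the gland, against 196.3, 248.6, 265.0 and 167.4 TPM in adipose (adjusted p = 0.0261). Lep, the gene of leptin, had 1.37 TPM in the gland, against 525.0, 81.0, 1699 and 1072 TPM in adipose, and did not pass (adjusted p = 0.0698). All 5 calls were lost without Mesentery (adjusted p = 0.0511 to 0.0642), those of Adipoq and Angptl4 also without AdrenalGland (0.0507 and 0.0502) and that of Angptl4 without InguinalFat (0.0761).

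Of 18 adipocyte transcription genes tested, 3 (16.7%) were called lower, against 1.57% of all genes, and 0 higher. Klf15, induced by glucocorticoid, had 3.40 TPM in the Harderian gland, against 40.1, 24.4, 65.2 and 52.8 TPM in adipose (adjusted p = 0.0284). Ebf1, an early factor of the adipocyte lineage, had 10.8 TPM in the gland, against 112.5, 69.0, 186.0 and 210.8 TPM in adipose (adjusted p = 0.0378), and Zfp423, a preadipocyte factor, 2.09 TPM in the gland, against 32.6, 15.0, 29.8 and 40.9 TPM (adjusted p = 0.0243). All 3 lost their call without InguinalFat or Mesentery, and Ebf1 and Zfp423 also without AdrenalGland (adjusted p = 0.0510 to 0.103). Cebpa, which works beside Pparg, had 145.2 TPM in the gland, against 715.6, 877.0, 978.8 and 791.5 TPM in adipose (adjusted p = 0.115). Adig, a small protein gene that adipocytes switch on, had 3959 TPM in the gland, against 1125, 1247, 997.7 and 1417 TPM in adipose, higher than every depot but not called (log2 fold change 1.63, adjusted p = 0.147). Pparg and Adig were thus abundant in both tissues.

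The genes past both the test and the size criterion were next ranked by fitted fold change, and the 15 largest in each direction taken. For a gene at 0 throughout one tissue the fitted value depends on the prior count, so such a gene has its place by that value only and is given here with its bound against a floor of 3 counts. Of the 15 with the largest fitted falls, Prr32 was listed at 0 in the Harderian gland, against 1842, 1472, 1227 and 2058 TPM in adipose, with a bound of -8.73 on the log2 scale (adjusted p = 0.00552). Klb, a co-receptor for the hormone FGF21, was at 0 in the gland, against 217.6, 73.5, 192.8 and 298.8 TPM in adipose, at least 340-fold lower. C1qtnf9, a relative of adiponectin, was at 0 in the gland, against 68.8, 119.0, 93.0 and 135.3 TPM in adipose, at least 230.0-fold lower (adjusted p = 0.0168, and 0.0516 and 0.0628 without InguinalFat and Mesentery). Mall, a membrane proteolipid gene, was also at 0 in the gland, against 37.9 to 94.5 TPM in adipose, at least 62.0-fold lower (adjusted p = 0.0163, lost without the same 2 libraries at 0.0644 and 0.0515). These 4 had no read in the gland among 15514079 counts, and their bounds are smaller than the fall of Retn, which had reads in the gland and ranked outside the 15 at a log2 fold change of -9.90. Slc36a2, an amino acid transporter of adipocytes, had 0.131 TPM in the gland, against 620.9, 552.6, 496.1 and 562.7 TPM in adipose (adjusted p = 0.00606). Car3, the carbonic anhydrase of fat and muscle, had 1.25 TPM in the gland, against 4553, 1122, 5777 and 4985 TPM in adipose (adjusted p = 0.0228, and 0.0591 to 0.0893 without AdrenalGland, InguinalFat or Mesentery). P2rx5, an ATP-gated channel, had 0.0523 TPM in the gland, against 73.5, 46.3, 40.6 and 58.3 TPM in adipose (adjusted p = 0.00546).

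Of the 15 with the largest fitted rises, Sptssb, Bpifa6, Sptlc3, Mogat1, Grhl2 and Elf5 are given above. BC048679, for which no role is given here, had 5758 TPM in the Harderian gland, at least 8961-fold higher against the floor, and Gm438, likewise, had 3678 TPM in the gland, at least 4708-fold higher (adjusted p = 0.0119 and 0.0112, and 0.0538 and 0.0503 without Mesentery). Aadacl2, of a family of lipid esterases, had 2128 TPM in the gland, at least 6755-fold higher (adjusted p = 0.0117, and 0.0515 without Mesentery). Muc15, a membrane mucin, had 741.7 TPM in the gland, at least 503-fold higher, and Slc12a1, the sodium, potassium and chloride cotransporter best known from kidney, had 131.1 TPM in the gland, at least 433-fold higher. These 5 were at 0 in every adipose library. Sdr16c6 and Sdr16c5, short-chain dehydrogenases that are near relatives and may share reads, had 3306 and 2196 TPM in the gland, against at most 0.137 and 0.169 TPM in adipose (adjusted p = 0.00164 and 0.00137). Gucy1b2, a guanylate cyclase subunit, had 165.2 TPM in the gland, against at most 0.0139 TPM in adipose (adjusted p = 0.00159), and BC089597, with no role given here, 2432 TPM in the gland, against at most 0.113 TPM (adjusted p = 0.00137).

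Receptors and regulators of the gland were examined next. Of 18 hormone and transmitter receptor genes tested, 2 (11.1%) were called higher, against 3.01% of all genes, and 0 lower. Mc5r, the melanocortin receptor that in mouse controls secretion of exocrine glands, had 1106 TPM in the Harderian gland, against 18.2, 2.63, 4.67 and 21.9 TPM in adipose, a log2 fold change of 6.74 ± 0.78 (SE, adjusted p = 0.0107). Chrm3, the muscarinic receptor for parasympathetic drive of glands, had 88.7 TPM in the gland, against 2.12, 1.17, 4.75 and 8.71 TPM in adipose (adjusted p = 0.0290, and 0.0514 to 0.0965 without AdrenalGland, InguinalFat or Mesentery). Both were above every depot. Of the 7 melatonin pathway genes in the table, 2 could be tested and none was called by edgeR. The list summed to 1.55 TPM in the gland, against 162.2, 0.731, 7.71 and 0 TPM in adipose. Its highest sum stood in AdrenalGland, the library that also held adrenal genes.

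Of 20 gland development factors tested, 4 (20%) were called higher, against 3.01% of all genes, and 0 lower. Pax6, a master regulator of eye tissues, had 158.7 TPM in the Harderian gland, against 0, 0.164, 0.396 and 1.13 TPM in adipose (adjusted p = 0.00985). Sox10, needed for Harderian and lacrimal glands in mouse and also a glial gene, had 404.1 TPM in the gland, against 3.16, 2.84, 1.49 and 22.8 TPM in adipose (adjusted p = 0.0463, and 0.0975 without InguinalFat, with the call also lost without AdrenalGland). Runx2 had 17.5 TPM in the gland, against 0.575 to 1.18 TPM in adipose, and Tfap2a 21.4 TPM in the gland, against 0 to 0.327 TPM (adjusted p = 0.0313 and 0.0350). Foxc1, a factor of orbital tissues, had 355.8 TPM in the gland, against 6.64, 2.44, 10.5 and 43.7 TPM in adipose, and did not pass (adjusted p = 0.0681). The calls of Runx2 and Tfap2a were lost without InguinalFat or Mesentery and that of Runx2 without AdrenalGland (adjusted p = 0.0644 to 0.116).

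Of 39 secretory pathway genes tested, 4 (10.3%) were called higher, against 3.01% of all genes, and 1 (2.56%) lower, against 1.57%. By TPM 20 (51.3%) lay above every adipose library, against 26.4% of all genes. The signal peptidase genes Sec11c and Spcs2, which trim secreted proteins, had 187.5 and 527.1 TPM in the Harderian gland, against 14.8 to 28.0 and 60.2 to 189.5 TPM in adipose (adjusted p = 0.00749 and 0.0282). The vesicle genes Rab3d and Rab27a, which act in release from exocrine cells, had 171.1 and 69.1 TPM in the gland, against 4.37 to 19.6 and 1.40 to 10.1 TPM in adipose (adjusted p = 0.0259 and 0.0389). Creb3l1, a stress-linked regulator of secretion, had 1.88 TPM in the gland, against 73.4, 24.7, 70.1 and 54.8 TPM in adipose (adjusted p = 0.0123, and 0.0514 without Mesentery). Spcs2, Rab3d and Rab27a lost their calls without AdrenalGland, InguinalFat or Mesentery (adjusted p = 0.0507 to 0.105), and Sec11c kept its. Among lacrimal and exocrine products 2 of 13 genes tested (15.4%) were called higher, Aqp5 and Bpifb1, against 3.01% of all genes, and 0 lower. Bpifb1, a secreted relative of Bpifa6, had 403.2 TPM in the gland, against 0, 0.185, 3.24 and 1.17 TPM in adipose (adjusted p = 0.0163, and 0.0716 without Mesentery). The list's median log2 fold change was -1.64, or -1.16 with genes at 0 in a whole group set to their bound. Of its 25 genes measured, 8 (32%) lay above every adipose library and 5 (20%) below, against 26.4% and 16.7% of all genes. In the gland 14 were under 1 TPM. The list summed to 1457 TPM in the gland, against 1059, 1648, 2303 and 1170 TPM in adipose.

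Set against all 58 other libraries, by size only, the Harderian gland was the highest by at least 4 times, at 10 TPM or more, for 86 genes. Without the midbrain library of T3F, in which some transcripts abundant in the gland were found, the count was also 86. Leaving out a library cannot lower this count. Of the 455 genes called higher than adipose, 202 had the Harderian gland as the highest of all 59 libraries and 253 did not. A call of higher already favours a top rank, and the share of all genes was not counted. The 202 are thus a description only. BC048679 had 5758 TPM in the gland, against 17.2 TPM in that midbrain library, the next, and at most 2.19 TPM in the other 57. Ugt1a8, a glucuronosyltransferase whose gene shares exons with its relatives, had 3788 TPM in the gland, against 24.2 TPM in midbrain and at most 3.36 TPM in the other 57. Il20, the gene of a skin cytokine, had 278.8 TPM in the gland, against 2.45 TPM in midbrain and at most 0.649 TPM in the other 57. Sptlc3 had 4198 TPM in the gland, against 31.8 TPM in bladder T173F, the next. The genes listed at 0 in all other libraries were 4 with few reads in the gland: Scgb2b2 with 69.3, Vmn2r105 with 11, Vmn2r103 with 5 and Defb22 with 3 counts. Scgb2b2, a secretoglobin of exocrine glands, did not pass against adipose (adjusted p = 0.175), and the other 3 were below the filter on low counts.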

How the data were processed

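RNA of 59 biopsies was sequenced from polyadenylated libraries in paired ends, per the labels' protocols. Deposited by the authors were expected counts, which need not be whole, and TPM, which sums to 1000000 per library. Per the submitters' processing notes, Bowtie 0.12.8 and RSEM were used. No coordinates are printed, since the build is not given in the sources used here. Genes carry mouse symbols in the files. No sequence was used. RSEM divides reads among similar transcripts, so genes with near-identical copies are uncertain.

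Expected counts were rounded and fitted with edgeR 4.0.16 in R 4.3.3 (quasi-likelihood test, TMM scaling, filterByExpr by group, Benjamini-Hochberg adjustment over all 15118 genes tested of 18970). The fit had 5 libraries, 2 groups and 3 residual degrees of freedom. Standard errors are the log2 fold change divided by the square root of the test statistic. Alternatives were RLE and upper quartile scaling, no filter, DESeq2 1.42.0, limma 3.58.1 on log2(TPM + 1) and log2(TPM + 0.1) for genes of at least 1 TPM, a model of all 59 libraries, the animal as a block, animal T3F only, and leaving out each adipose library. Only the animals pair samples: T3F gave the gland, BrownFat and InguinalFat. Total counts were 6986087 to 22420209. A floor of 3 counts per TMM-scaled library bounds folds against 0; floors cover counting error only. The scripts were tested on simulated data.

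Genes were named by rule: per direction the 15 largest fitted changes past both criteria, the 10 most abundant genes of the gland and the 5 of each adipose library, the 10 highest ratios to the other libraries, and members of the lists. The members and lists were chosen with earlier results of these data known. Cds1, Crot, Tmem86a, Ppt1 and Adig, the sphingolipid group and the gene pairs were gathered after values had been seen. Nothing says whether libraries are separate dissections beyond animal and site. Some genes are not reported here.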

Additional observations from a re-analysis of the deposited data

Results flagged for a closer look

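In the group of 4 adipose libraries 1 library lay far from the other 3 on the log2(TPM + 1) scale, past Dixon's 95% critical value, for 14 of the 152 named genes checked, where chance gives this for about 1 gene in 20. For 5 of the 14 it is 3 depots at 0 beside a trace, which passes the criterion however small the trace is. BrownFat was the low one for Plin4 at 471.3 TPM, Car3 at 1121.9 TPM, Ppt1 at 46.08 TPM and Cav1 at 644.2 TPM; mitochondrial genes held 37.03% of TPM in that library, and their part in these values was not tested. InguinalFat was high for Retn at 2015.4 TPM and Cd36 at 784.1 TPM and low for Gpd1, a glycerol phosphate enzyme, at 8480.9 TPM, and Mesentery was low for G0s2 at 4728.9 TPM and high for Krt17 at 93.89 TPM. The 5 traces were Sptlc3 at 0.08812, Sdr16c5 at 0.1689 and BC089597 at 0.1131 TPM in InguinalFat, and Sdr16c6 at 0.137 and Gucy1b2 at 0.0139 TPM in BrownFat. All of these lay on the same side of the Harderian gland as the rest of adipose, except Krt17, where Mesentery was level with it.

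The midbrain library of T3F, which the labels place under eye and which the 5-library comparison does not use, held transcripts that the Harderian gland has at high level. Bpifa6 had 22803 TPM in the gland, 201 TPM in midbrain, at most 1.82 TPM in the libraries labelled brain and at most 1.93 TPM in all 57 others. BC048679 had 17.16 TPM in midbrain and at most 1.13 TPM in brain, Ugt1a8 24.22 and at most 0.606 TPM, and Il20 2.446 and at most 0.167 TPM, and midbrain was the next library after the gland for these 4. Sptlc3 had 30.71 TPM in midbrain and at most 0.718 TPM in brain, but 31.8 TPM in bladder, and Tmem254b 133.1 TPM in midbrain and at most 39.6 TPM in brain, but 159.1 TPM in thymus, so midbrain does not stand apart for these 2 outside brain. For these 6 genes midbrain stood at 0.298 to 0.881% of the gland's TPM. Midbrain was also the next library for Gm438, Mogat1 and Scgb2b3, a relative of Scgb2b2, at 0.977, 1.08 and 1.66% of the gland's TPM. Scgb2b3 had 12 counts in midbrain, and its 35.2 TPM there was close to the 34.4 TPM of the highest of the other 57 libraries. How these transcripts came into the library was not tested.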

How the results depend on the processing

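The counts of 455 genes higher and 238 lower in the Harderian gland than in adipose stayed within 1.5 times under RLE and upper quartile scaling, without the filter on low counts, without mitochondrial genes (an alternative added after the data were seen), and without a minimum fold. The limma counts were also within 1.5 times but of partly different genes: 569 higher and 163 lower with a pseudocount of 1, of which 220 and 108 were among the 455 and 238, and 393 and 176 with 0.1, of which 146 and 112 were. Of 113 calls of genes named here limma lost 32 and 41. DESeq2 gave 970 higher and 1522 lower. With the animal as a replicate block they were 187 and 110, of which 176 and 102 were also called without it; it ended 36 calls of genes named here and turned the direction of none, and the cause was not tested. The libraries of T3F alone gave 0 and 0, also for each list counted here. There 1 residual degree of freedom is left. Over all 59 libraries 392 genes were called higher, 207 of them among the 455, and 17 lower, 15 of them among the 238, and 0 of the white adipocyte list. Leaving out 1 adipose library gave 151 to 776 higher and 33 to 760 lower. The same omissions gave 2 to 12 white adipocyte genes lower in place of 10, 3 to 8 heme genes higher in place of 6, and 2 to 5 elongation genes higher in place of 5. The heme and elongation lists each gave 3 genes higher under limma with either pseudocount. Under limma on log2(TPM + 0.1) the epithelium list gave 8 in place of 15 and the ether lipid list 2 in place of 4. The elongation list gave 3 with the block, and the all-library model 2, where heme gave 3. Of the 693 genes called, 0 changed direction under any of these settings. Among genes not called, Cidea went to 2.10 and 2.13 under limma with a pseudocount of 1 and 0.1, to 2.14 over all libraries and to -0.43 to 2.80 on leaving out 1 library (log2 fold changes). mt-Nd5 went to 1.43, 1.44 and 1.45 under the same 3 models and to -1.02 to 1.66 on leaving out 1 library, and mt-Nd1 to -1.88 to 0.57; the highest of each was without BrownFat. The cause was not tested. Leaving the midbrain library out of the other 58, also added after the data were seen, left the count of 86 genes at 86. Such an omission can only keep or raise this count, so it is no check on it. With 1 Harderian gland library, no setting shows how the gland varies between animals, and genes at a few counts cannot be compared at the depth of AdrenalGland and Mesentery.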
